A study of Mus musculus with 20 samples.

Results

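The genes described here encode the respiratory chain and the ATP synthase of mitochondria in mouse CD4+ T cells. They were chosen by name, as the protein-coding genes whose symbol starts with Nduf (complex I), Sdha to Sdhd (complex II), Uqcr (complex III), Cox4 to Cox8 (complex IV), Atp5 (complex V, the ATP synthase) or mt- (encoded by mitochondrial DNA), with at least 100 counts summed over all libraries. Among 22048 protein-coding genes, 109 carried such a name and 98 of these had enough counts. These 98 comprise 91 nuclear genes and 7 mt- genes. The nuclear genes include 44 of complex I, 8 of complex II, 8 of complex III, 15 of complex IV and 16 of complex V. By role, 17 are catalytic core subunits, 61 accessory subunits and 13 assembly factors. The mt- genes are mt-Nd1, mt-Nd2, mt-Nd4, mt-Nd5 and mt-Nd6 of complex I, mt-Cytb of complex III and mt-Co1 of complex IV. The 11 that fell short were mt-Atp6, mt-Atp8, mt-Co2, mt-Co3, mt-Nd3, mt-Nd4l, Cox4i2, Ndufa4l2, Cox7b2, Cox8b and Cox8c.

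The 20 libraries of total RNA, 2 in each of 10 groups, follow the effect of losing DOT1L, the methyltransferase of histone H3 lysine 79, on CD4+ T cells and on their polarisation. KO cells came from CD4Cre+ mice homozygous for a floxed Dot1l gene, and WT cells from CD4Cre+ mice, so both genotypes carry a Cre driven by Cd4 that acts in cells that express or have expressed Cd4. KO naive and WT naive libraries hold the starting cells of the spleen and peripheral lymph nodes, before culture. KO Th1, WT Th1, KO Th2 and WT Th2 libraries hold viable CD4+ cells sorted after 4 days on plates with antibodies to CD3 and CD28 (1 µg/ml each). Th1 medium held IL-2 and IL-12 (10 ng/ml each) and an antibody to IL-4 (10 µg/ml), and Th2 medium held IL-2 and IL-4 (10 ng/ml each) and an antibody to IFN-g (10 µg/ml). Further WT Th1 and WT Th2 cultures held 1 µM of SGC0946, an inhibitor of DOT1L, or 1 µM of SGC0649, its control compound. Nothing in the labels says that the 2 libraries of a group are separate mice or cultures, so the p-values measure the spread between these libraries. In bulk RNA, fewer cells of a type and less RNA per cell cannot be told apart.

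Complexes I to IV pass electrons to oxygen and pump protons across the inner mitochondrial membrane, and complex V uses the proton gradient to make ATP. Most subunits are encoded in the nucleus and imported, while a few subunits of complexes I, III, IV and V are encoded by mitochondrial DNA and read from long shared transcripts, so a complete complex needs the products of both genomes. T cells are known to enlarge and remodel their mitochondria when they leave quiescence.

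The files held 9704500 to 13025588 counts in protein-coding genes per library, and 27.4% to 34.9% of alignments were multimapping and left uncounted. Dot1l, whose counts cover the whole gene and not only the floxed part, had 146 and 166 CPM (counts scaled to a common library size after TMM) in KO naive cells, against 163 and 171 CPM in WT naive cells. It fell to 131 and 146 CPM in KO Th1 against 176 and 186 CPM in WT Th1 (log2 fold change -0.39 ± 0.11 SE, adjusted p = 0.00841, edgeR), and to 113 and 92.5 CPM in KO Th2 against 148 and 164 CPM in WT Th2 (-0.60 ± 0.11, adjusted p = 0.00027, edgeR). In naive cells its difference did not pass (-0.10 ± 0.11, adjusted p = 0.544, edgeR), so the gene's total counts give no check of the label there. Marker genes of other cells, given beside the results they move with, differed between KO and WT in each state. The summed genes of handling stress lay apart between KO and WT in naive cells, and overlapped in Th1 and Th2 cultures. No marker gene in these lists was at 0 in all libraries.

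Which mt- genes can be read from these counts follows from a copy of mitochondrial DNA in the nuclear genome. On chromosome 1, between bases 24611535 and 24616197 of GRCm38 on the minus strand, 7 annotated pseudogenes repeat a stretch of the mitochondrial genome. A read that lies in both places is multimapping and was not counted. Repeated without a difference are bases 1 to 681 of 684 in mt-Co2, 1 to 783 of 784 in mt-Co3, 1 to 678 of 681 in mt-Atp6, 1 to 294 of 297 in mt-Nd4l and 4 to 345 of 348 in mt-Nd3. The copy starts inside mt-Co1 and ends inside mt-Nd4, repeating bases 1067 to 1545 of mt-Co1 and bases 1 to 876 of mt-Nd4. Of all 50-base windows, 100% in mt-Co2, 99.9% in mt-Co3, 99.5% in mt-Atp6, 98.8% in mt-Nd4l and 98.0% in mt-Nd3 occur in another gene. These 5 genes had 0, 0, 1, 0 and 7 counts over all 20 libraries. The shared part was 62.2% in mt-Nd4, 51.1% in mt-Co1, 8.19% in mt-Nd2 and 7.61% in mt-Nd5, and none was found in mt-Nd1, mt-Cytb, mt-Nd6 or mt-Atp8. For mt-Co1 the windows are shared with 3 genes and reach beyond bases 1067 to 1545, so the 51.1% is not the stretch on chromosome 1 alone. This search covered annotated transcripts. mt-Atp8, with 0 counts, lies between mt-Co2 and mt-Atp6, where the stretch on chromosome 1 has no annotated gene, so a copy of it there was not tested. Counts of mt-Co1 and mt-Nd4 come from part of each gene, and their levels per length are understated.

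The edges of the copy are shown because reads within it cannot be placed in mt-Co1 or mt-Nd4 alone, with the first bases of mt-Co2 and its pseudogene as an example of a gene that cannot. Capitals mark bases found in the copy on chromosome 1. The windows are MT:6364-6423 in mt-Co1, MT:11013-11072 in mt-Nd4, MT:7013-7072 in mt-Co2 and chr1:24615506-24615565 on the minus strand in Gm28661, all in GRCm38 and read 5′ to 3′ along the gene.
mt-Co1: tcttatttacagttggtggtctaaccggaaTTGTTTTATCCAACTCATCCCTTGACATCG
mt-Nd4: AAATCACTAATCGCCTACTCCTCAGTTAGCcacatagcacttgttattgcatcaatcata
mt-Co2: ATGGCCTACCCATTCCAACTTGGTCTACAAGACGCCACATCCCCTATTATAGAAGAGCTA
Gm28661: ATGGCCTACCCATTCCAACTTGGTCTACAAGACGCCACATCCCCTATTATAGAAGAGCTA

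**Figure D1:**
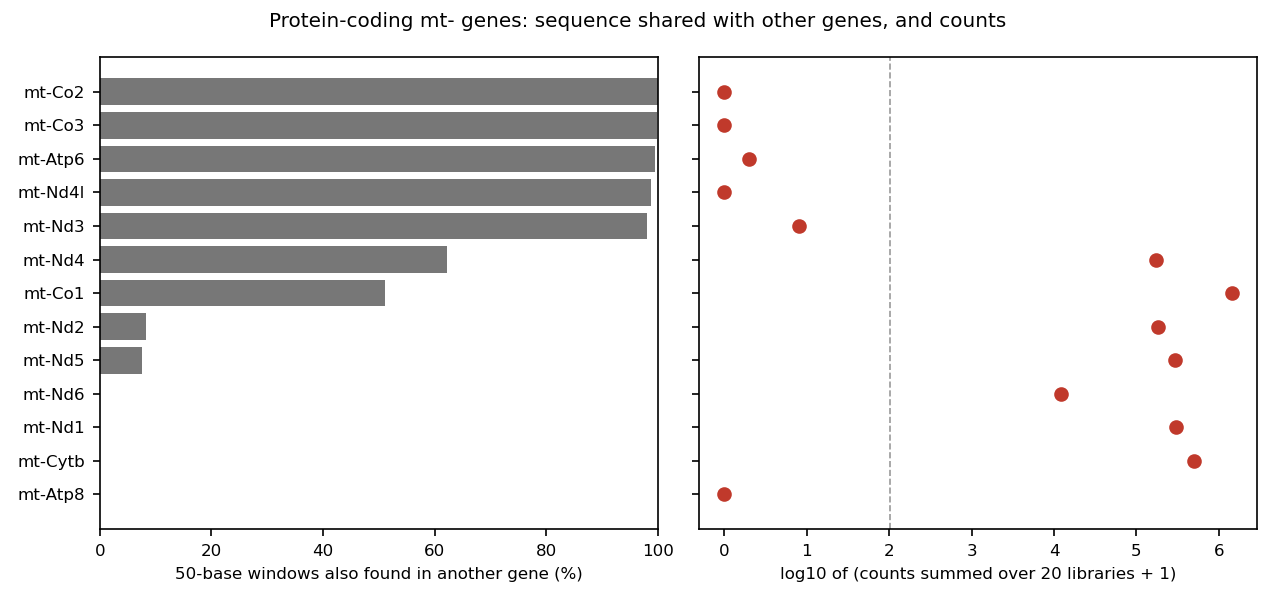
Left, the share of 50-base windows of each of the 13 protein-coding mt- genes that also occurs in an annotated transcript of another gene, in percent; right, the counts of that gene summed over 20 libraries, as log10 of the sum plus 1, with the minimum of 100 counts dashed. The 5 genes at 98.0% or more lie at 7 counts or fewer, mt-Atp8 has 0 counts with no window found in an annotated transcript, and the other 7 genes hold between 12296 and 1432005 counts.

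Reads given to the nuclear copy of mt-Nd3 separated KO from WT libraries. The pseudogene Gm28438, the nuclear copy of mt-Nd3, had 12 and 14 reads in KO naive, 12 and 17 in KO Th1 and 27 and 18 in KO Th2 libraries, against 0 in every one of the 14 WT libraries. mt-Nd3 itself had 0 reads in the 6 KO libraries and 0 to 3 in each WT library, 7 in all. The copy differs from the gene by T3C, counted from the first transcribed base. The sequences below are MT:9459-9488 and chr1:24613090-24613119 on the minus strand (GRCm38), with the differing base in capitals, and are shown because reads over this base can be placed.
mt-Nd3: atTaacctgtacactgttatcttcattaat
Gm28438: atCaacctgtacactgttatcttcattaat
Which genome the reads counted for Gm28438 came from was not tested, nor whether KO and WT mice carried the same mitochondrial DNA, which bears on every KO against WT value of an mt- gene given here.

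Per length, 6 of the 7 mt- genes stood above every nuclear one. On the scale of CPM per kilobase of annotated length, averaged over 20 libraries, mt-Co1 had the highest level of the 98 genes at 4307, followed by mt-Cytb at 2017, mt-Nd1 at 1461, mt-Nd2 at 803, mt-Nd5 at 740.2 and mt-Nd4 at 574. The highest nuclear level came next, that of Cox8a, a small structural subunit of complex IV, at 251. The catalytic subunits of the ATP synthase head, Atp5a1 and Atp5b, had levels of 234 and 227, and the complex IV subunits Cox5a and Cox4i1 had 174 and 173. mt-Nd6, which is encoded on the other strand of mitochondrial DNA, ranked 20th at a level of 109. The lowest levels were those of the assembly factor Sdhaf3 (0.672), 2 genes of ATP synthase subunit c, Atp5g2 (1.08) and Atp5g1 (1.597), and the muscle isoforms Cox6a2 (1.83) and Cox7a1 (2.39). Counts of Atp5g3, a further gene of subunit c, came to 44086 over all libraries, against 391 for Atp5g2 and 1705 for Atp5g1. Of the nuclear genes named here, Sdhaf1 shares 69.0% of its windows with other genes, Atp5g2 38.3%, Cox7c 22.1%, Ndufs5 21.7%, Ndufa12 17.7% and Atp5g1 11.1%, so reads may be missing from them.

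Between WT cultures and WT naive cells, the mt- and nuclear sums differed in opposite directions. Summed over the 7 mt- genes, the level was 12171 and 12236 CPM in WT Th1 cultures and 15475 and 13754 CPM in WT Th2 cultures, against 19844 and 18129 CPM in WT naive cells. Summed over the 91 nuclear genes it was 8079 and 8224 CPM in WT Th1 and 8176 and 8471 CPM in WT Th2, against 6465 and 6383 CPM in WT naive cells. The ratio of the mt- sum to the nuclear sum was 1.51 and 1.49 in WT Th1 and 1.89 and 1.62 in WT Th2, against 3.07 and 2.84 in WT naive cells. All 4 WT culture libraries lay below the naive ones in the mt- sum and the ratio and above them in the nuclear sum. The log2 difference of the ratio, taken between group means of log2 values as for all sums here, was -0.98 in Th1 and -0.75 in Th2. Without mt-Co1 and mt-Nd4, the 2 genes cut by the nuclear copy, these differences became -1.25 and -1.45. Both cultures are compared with the same WT naive libraries.

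**Figure D2:**
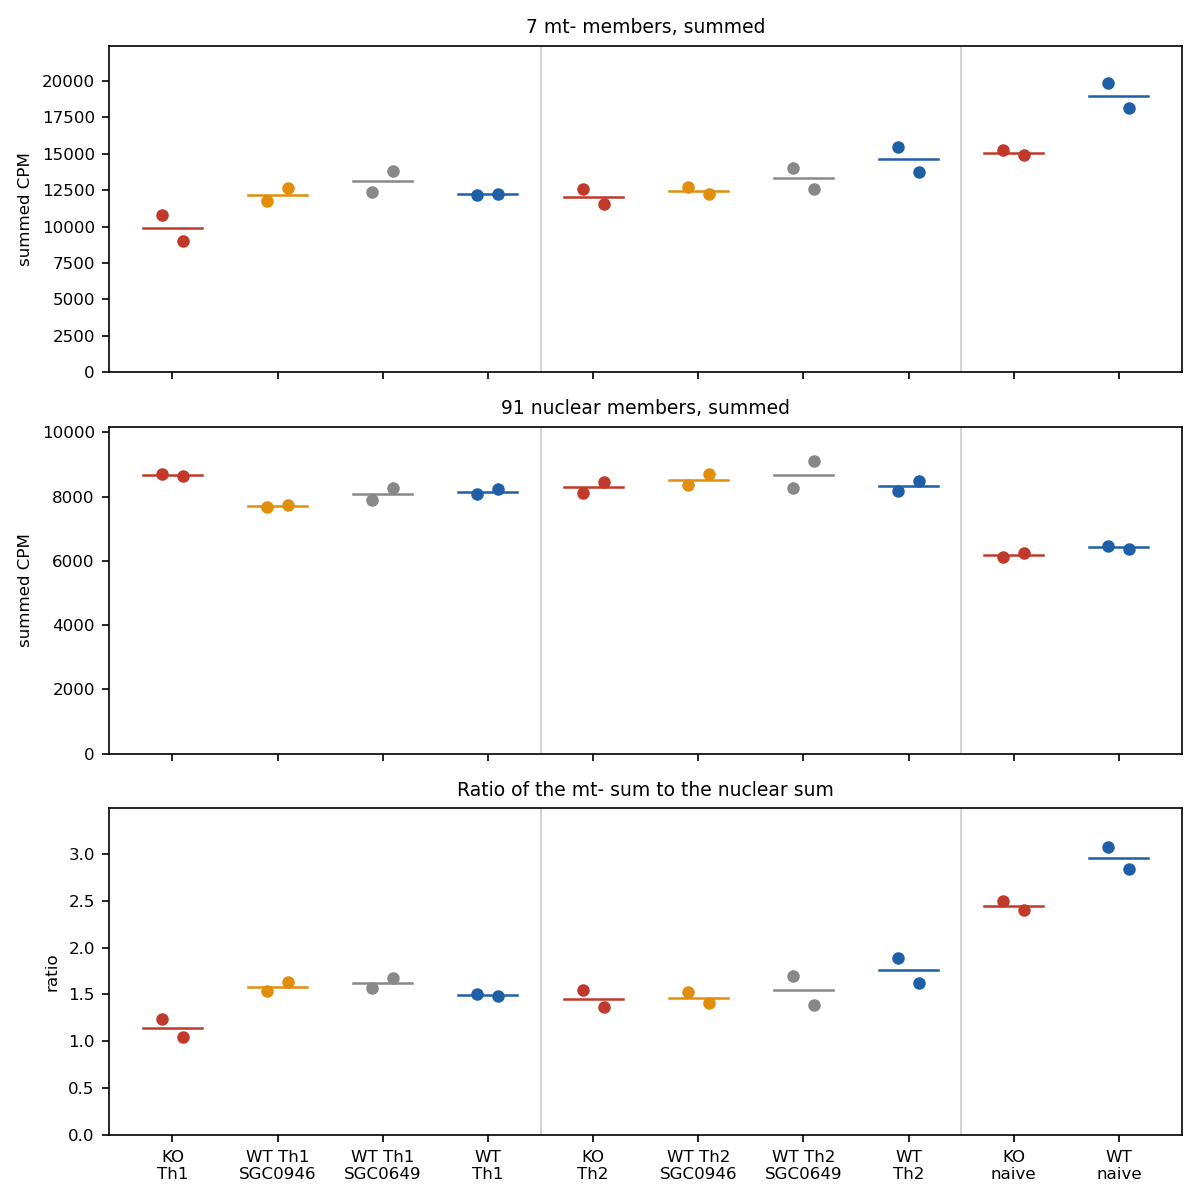
Summed level (CPM, linear axes from 0) of the 7 mt- genes, of the 91 nuclear genes, and the ratio of the first to the second, in each of 20 libraries; points are libraries and bars the mean of 2. WT naive cells have the highest ratio, at 3.07 and 2.84, and KO Th1 cultures the lowest, at 1.24 and 1.04.

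In WT Th1 against WT naive cells, 56 of 91 nuclear genes were higher and 8 lower at an adjusted p under 0.05 (edgeR), with a median log2 fold change of 0.37. Of the 7 mt- genes none was higher and 6 were lower, with a median of -0.72. Over all 13072 genes tested, 67.3% were called, 34.3% higher and 33.0% lower, with a median of 0.00, so the share of nuclear genes called is near that of all genes, and the direction is what differs. In WT Th2 against WT naive cells, 43 nuclear genes were higher and 11 lower (median 0.28), and 1 mt- gene was higher and 5 lower (median -0.91), with 71.9% of all genes called, 36.9% higher and 35.0% lower, and a median of 0.03.

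Among the mt- genes, mt-Nd2 had 727 and 762 CPM in WT Th1 and 761 and 689.6 CPM in WT Th2, against 1744 and 1541 CPM in WT naive cells. It fell by a log2 fold change of -1.14 ± 0.11 in Th1 (adjusted p = 1.32e-07) and -1.18 ± 0.11 in Th2 (adjusted p = 6.56e-08, edgeR). mt-Cytb, an electron-carrying subunit of complex III, had 2232 and 2345 CPM in WT Th1. The WT Th2 libraries had 1886 and 1713 CPM, and WT naive cells 4401 and 4104 CPM. For both genes, the culture libraries lie well under the naive ones, without overlap. Complex I subunits mt-Nd1, mt-Nd4 and mt-Nd5 fell too, by log2 fold changes of -1.04 ± 0.12, -0.72 ± 0.10 and -0.67 ± 0.10 in Th1 and of -0.93 ± 0.12, -0.85 ± 0.10 and -0.91 ± 0.10 in Th2. mt-Nd6 had 61.8 and 57.8 CPM in WT Th1 and 63.1 and 48.2 CPM in WT Th2, against 77.4 and 56.0 CPM in WT naive cells, ranges that overlap, and did not pass in either culture.

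mt-Co1, the catalytic subunit of complex IV, stood apart from the other mt- genes. It had 5932 and 5768 CPM in WT Th1 and 9543 and 8387 CPM in WT Th2, against 7632 and 6911 CPM in WT naive cells. Th1 libraries lay below the naive range and Th2 libraries above it. Its log2 fold change was -0.31 ± 0.11 in Th1 (adjusted p = 0.0232, edgeR), a call lost without WT naive replicate 1 (adjusted p = 0.165), WT Th1 replicate 1 (0.0688) or WT Th1 replicate 2 (0.112). In Th2 it was 0.30 ± 0.11 (adjusted p = 0.0261, edgeR), lost without WT naive replicate 2 (0.176) or WT Th2 replicate 1 (0.23). mt-Co1 made up 48.7% and 47.1% of the mt- sum in WT Th1 and 61.7% and 61.0% in WT Th2, against 38.5% and 38.1% in WT naive cells. Set against mt-Cytb, its ratio was 2.66 and 2.46 in WT Th1 and 5.06 and 4.90 in WT Th2, against 1.73 and 1.68 in WT naive cells. The 3 states do not overlap in either measure, so the mt- genes did not change in 1 proportion.

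**Figure D3:**
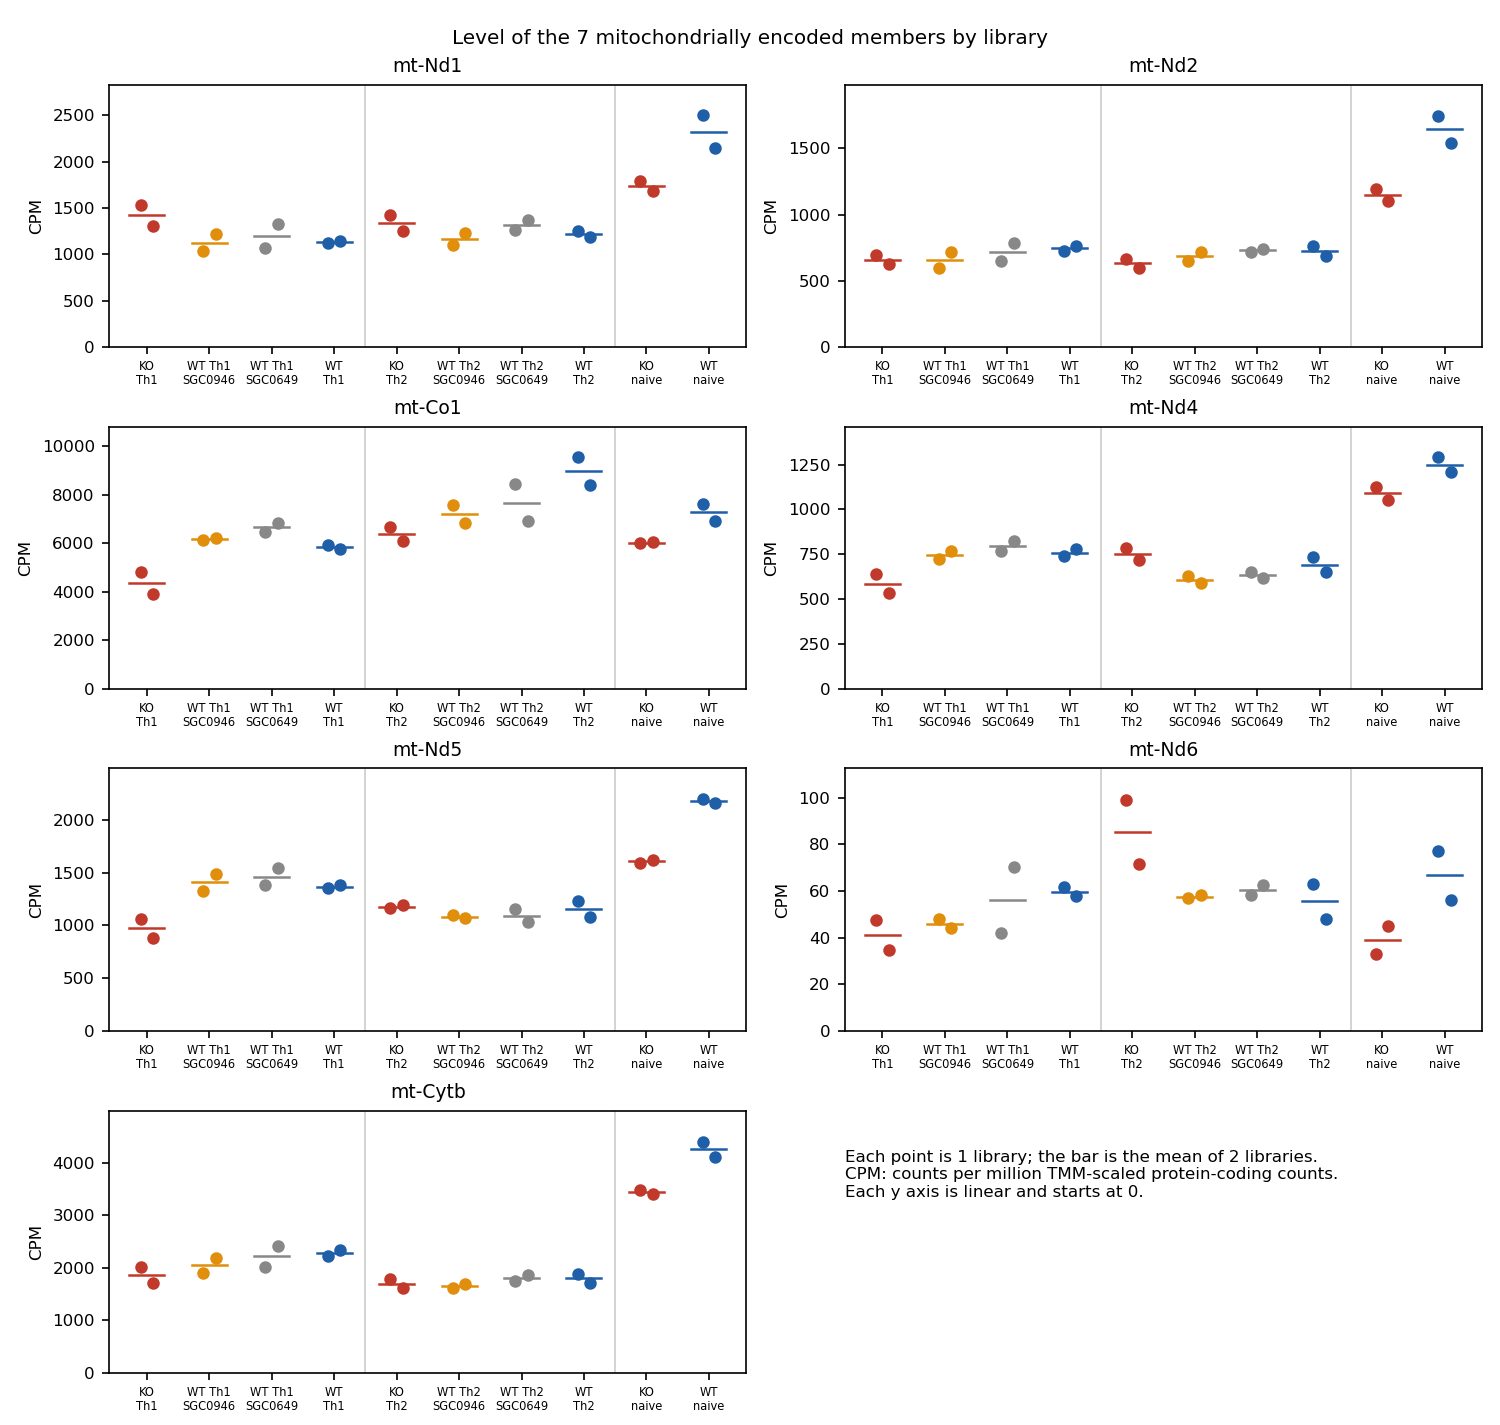
Level of each of the 7 mt- genes (CPM, linear axes from 0) in each library; points are libraries and bars the mean of 2. For 5 genes WT naive cells are highest, mt-Nd6 is highest in KO Th2 cultures (99.1 and 71.6 CPM), and mt-Co1 is highest in WT Th2 cultures (9543 and 8387 CPM).

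The nuclear genes that rose in culture came from all 5 complexes. In WT Th1 against WT naive cells, 27 of 44 complex I genes were higher and 2 lower (median log2 fold change 0.45), 4 of 8 complex II genes were higher and 2 lower (0.12), 6 of 8 complex III genes were higher and 1 lower (0.36), 9 of 15 complex IV genes were higher and 1 lower (0.34), and 10 of 16 complex V genes were higher and 2 lower (0.38). Within complex I, 21 of 29 accessory subunits were higher, against 2 of 7 core subunits, whose median was -0.02. In WT Th2 the counts were 20 higher and 5 lower in complex I (0.27), 3 and 3 in complex II (-0.16), 4 and 0 in complex III (0.33), 10 and 2 in complex IV (0.42), and 6 and 1 in complex V (0.22). Over all genes tested, 34.3% were higher and 33.0% lower in Th1, and 36.9% and 35.0% in Th2. The difference between core and accessory subunits was not tested.

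Cox5a, a nuclear subunit of complex IV (chromosome 9, 57521232 to 57532424), had 145 and 138 CPM in WT Th1 and 107 and 110.0 CPM in WT Th2, against 57.0 and 51.8 CPM in WT naive cells. Its log2 fold change was 1.38 ± 0.10 in Th1 (adjusted p = 4.43e-09) and 0.99 ± 0.10 in Th2 (adjusted p = 1.91e-07, edgeR). Ndufv3, an accessory subunit beside the NADH-binding site of complex I (chromosome 17, 31520115 to 31531326), had 121 and 128 CPM in WT Th1 and 199 and 181 CPM in WT Th2, against 52.8 and 49.3 CPM in WT naive cells. Its fold change was the largest of the called nuclear genes in Th2 with more than 3 counts in each group, at 1.89 ± 0.10 (adjusted p = 2.67e-11, edgeR), and was 1.29 ± 0.10 in Th1. For both genes every culture library lay above every naive one.

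Rises among the catalytic and stalk subunits of the ATP synthase included those of Atp5b and Atp5d. Atp5b, the catalytic beta subunit of the ATP synthase, had 874 and 931 CPM in WT Th1 and 1032 and 1184 CPM in WT Th2, against 693 and 687 CPM in WT naive cells (log2 fold changes 0.39 ± 0.11 and 0.68 ± 0.11, adjusted p = 0.00501 and 3.1e-05, edgeR). Atp5d, the delta subunit of its stalk, rose in Th2 to 305 and 311 CPM, against 137 and 142 CPM in WT naive cells (1.15 ± 0.09, adjusted p = 2.64e-09, edgeR). Cox4i1, the main isoform of complex IV subunit 4, had a log2 fold change of 0.34 ± 0.07 in Th1 and 0.42 ± 0.07 in Th2, and Uqcrfs1, the Rieske iron-sulfur protein of complex III, of 0.27 ± 0.07 and 0.57 ± 0.07, all 4 called. Sdhb, the iron-sulfur subunit of complex II, passed in Th1 (0.47 ± 0.11, adjusted p = 0.00128, edgeR) and not in Th2 (-0.19, adjusted p = 0.138). The core subunits Ndufv1 and Sdha and the ATP synthase alpha subunit Atp5a1 passed in neither culture. Ndufs1 did not pass in Th1, and passed in Th2 (-0.23 ± 0.09, adjusted p = 0.0341, edgeR) but not without WT naive replicate 1 (0.203), WT Th2 replicate 1 (0.12) or WT Th2 replicate 2 (0.062).

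Other called genes with high folds in Th1 were the complex I accessory subunit Ndufs5 (1.31 ± 0.25) and the complex I assembly factors Ndufaf3 (1.18 ± 0.19) and Ndufaf1 (1.07 ± 0.17). Cox6b2, known as a testis isoform of a complex IV subunit, had 10.0 and 11.5 CPM in WT Th2, against 3.53 and 2.60 CPM in WT naive cells (1.81 ± 0.20). The muscle isoforms were read from few counts. Cox7a1 had 17 and 16 counts in WT Th1 and 25 and 21 in WT Th2, against 2 and 1 in WT naive cells, ratios of 9.83 (95% interval 3.08 to 50.1) and 15.8 (5.09 to 79.6). Cox6a2 had 30 and 26 counts in WT Th2, against 1 and 2 in WT naive cells, a ratio of 19.3 (6.27 to 96.3). These intervals cover counting error only.

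Of the 13 assembly factors, 5 were higher and 3 lower in Th1, and 4 were higher and 5 lower in Th2. Of all genes, 67.3% and 71.9% were called in these cultures against WT naive cells. Ndufaf4, an assembly factor of complex I (chromosome 4, 24898083 to 24905001), had 10.1 and 11.3 CPM in WT Th1 and 11.5 and 13.2 CPM in WT Th2, against 25.3 and 26.3 CPM in WT naive cells (-1.27 ± 0.17 and -1.06 ± 0.17). Sdhaf1, an assembly factor for the iron-sulfur subunit of complex II, had 25.6 and 23.99 CPM in WT Th1 and 16.8 and 16.1 CPM in WT Th2, against 45.8 and 53.3 CPM in WT naive cells (-0.998 ± 0.12 and -1.59 ± 0.12). Sdhaf4, which acts with the flavin subunit of complex II, fell in Th2 to 3.74 and 3.82 CPM, against 10.1 and 8.71 CPM in WT naive cells (-1.31 ± 0.27, adjusted p = 0.000329, edgeR). Among the subunits, Cox7c of complex IV fell in both cultures, with 8.49 and 8.85 CPM in WT Th1 and 8.30 and 7.86 CPM in WT Th2, against 28.9 and 27.8 CPM in WT naive cells (-1.71 ± 0.16 and -1.81 ± 0.16). Uqcrc1, a core protein of complex III, had -0.36 ± 0.09 in Th1 (adjusted p = 0.00305, edgeR), lost without WT naive replicate 2 (0.0534), and did not pass in Th2.

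**Figure D4:**
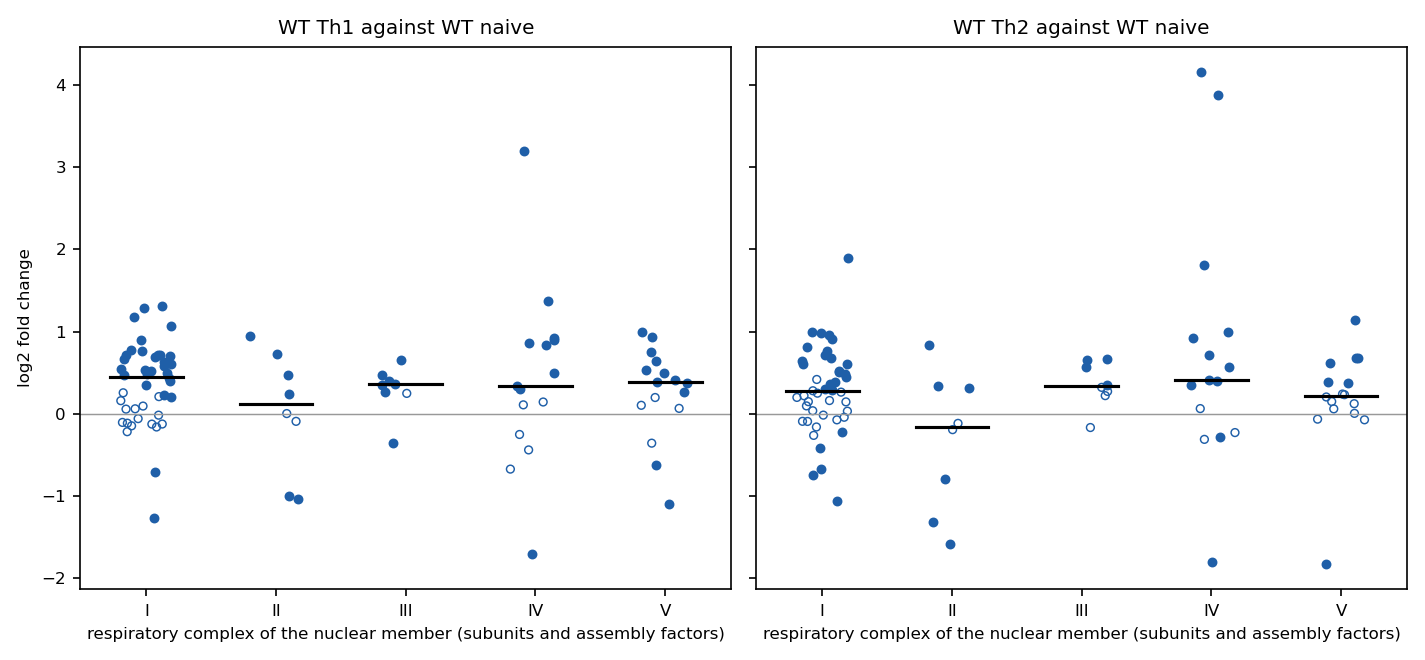
Log2 fold change of each of the 91 nuclear genes in WT Th1 (left) and WT Th2 (right) against WT naive cells, by complex; filled points passed an adjusted p under 0.05, bars are medians. The medians of complex I are 0.45 in Th1 and 0.27 in Th2; the points above 3 are Cox7a1 and Cox6a2, which had 1 or 2 counts per WT naive library, so that their fitted values are no bound.

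Markers of other cells differed between cultures and naive cells as well. The summed level of 9 erythroid markers ranged from 2.23 to 6.72 CPM in the WT cultures without compound, against 397 and 261 CPM in WT naive cells, and all 9 were lower in both cultures. The 13 myeloid and dendritic cell markers summed to 82.8 and 85.7 CPM in WT Th1 and 133 and 98.3 CPM in WT Th2, against 596 and 454 CPM in WT naive cells, with 8 and 7 of 12 tested lower. Of 5 NK cell markers, 4 were lower in Th1 and 5 in Th2. The 10 genes induced by handling stress summed to 1548 and 1405 CPM in WT Th1 and 1421 and 1405 CPM in WT Th2, against 4166 and 4735 CPM in WT naive cells, with 7 lower in Th1 and 6 lower and 3 higher in Th2. Of 12 T cell markers, 6 were higher and 2 lower in Th1, and 2 higher and 7 lower in Th2. Of 11 tested mast cell and basophil markers, 7 were higher and 1 lower in Th1, and 5 higher and 2 lower in Th2. The part of these genes in the results was not tested.

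Between the 2 cultures, differences were smaller and ran both ways. In WT Th1 against WT Th2, 21 nuclear genes were higher and 15 lower (median log2 fold change 0.04), and 1 mt- gene was higher and 1 lower, with 53.3% of all genes called, 26% higher and 27.3% lower. mt-Co1 was lower in Th1 (-0.62 ± 0.12, adjusted p = 0.000257, edgeR). mt-Cytb was higher (0.35 ± 0.11, adjusted p = 0.0116, edgeR), a call lost without WT Th1 replicate 2 (0.0744) or WT Th2 replicate 2 (0.111). The ratio of the mt- to the nuclear sum was lower in Th1 by a log2 difference of -0.23, and was higher by 0.21 once mt-Co1 and mt-Nd4 were left out, so its direction rests on those genes. The 12 T cell markers summed to 7854 and 7695 CPM in WT Th1, against 5204 and 4859 CPM in WT Th2, with 10 higher and none lower. Of 12 tested myeloid and dendritic cell markers, 1 was higher and 5 were lower in Th1. Their part in these differences was not tested.

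In complex II, 4 of 8 genes were higher in Th1 and 0 lower, a called share near the 53.3% of all genes (26% higher, 27.3% lower). Sdhb had 129.8 and 126 CPM in WT Th1, against 76.7 and 84.6 CPM in WT Th2 (0.67 ± 0.11, adjusted p = 9.93e-05, edgeR), and Sdhaf4 had 8.32 and 10.5 CPM, against 3.74 and 3.82 CPM in WT Th2 (1.31 ± 0.27, adjusted p = 0.000529, edgeR). Higher in Th1 were also Ndufs5 (1.06 ± 0.24), Ndufaf3 (0.90 ± 0.18), the complex I accessory subunit Ndufa5 (0.80 ± 0.19), ATP synthase subunit e, encoded by Atp5k (0.69 ± 0.16), and Cox5a (0.38 ± 0.10). Lower in Th1 were Cox6b2 (-0.97 ± 0.19), the complex I assembly factor Ndufaf6 (-0.86 ± 0.19), Ndufv3 (-0.61 ± 0.09) and Uqcrfs1 (-0.31 ± 0.07). Cox6a2 had 2 and 0 counts in WT Th1, against 30 and 26 in WT Th2, a ratio of 0.0309 (95% interval 0.00365 to 0.117, counting error only).

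In KO against WT naive cells, the mt- transcripts were lower as a sum and few nuclear genes differed. The 7 mt- genes summed to 15227 and 14938 CPM in KO naive cells, against 19844 and 18129 CPM in WT naive cells, and the 91 nuclear genes to 6103 and 6232 CPM, against 6465 and 6383 CPM in WT naive cells. The ratio of the sums was 2.49 and 2.40 in KO naive, against 3.07 and 2.84 in WT naive cells, with no overlap. The mt- sum was lower by a log2 difference of -0.33 and the nuclear sum by -0.06. As shares of all assigned counts, the differences are -0.23 and 0.04, so the direction of the nuclear sum depends on the scaling. Of the mt- genes 5 were lower and none higher (median -0.42), and of the nuclear genes 9 were lower and 1 higher (median -0.05), with 28.4% of all genes called, 16% higher and 12.4% lower. These counts are not stable. With WT naive replicate 1 left out, 4 nuclear genes were called, with the second WT naive library left out 3, and with KO naive replicate 1 left out 1. Of the mt- genes, 2 were called with WT naive replicate 1 or KO naive replicate 1 left out, and 3 with KO naive replicate 2 left out.

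The mt- calls that stood whichever library was left out were those of 2 complex I subunits. mt-Nd2 had 1192 and 1100.0 CPM in KO naive, against 1744 and 1541 CPM in WT naive cells (-0.52 ± 0.11, adjusted p = 0.00268, edgeR). mt-Nd5 had 1589 and 1623 CPM in KO naive, against 2195 and 2159 CPM in WT naive cells (-0.44 ± 0.10, adjusted p = 0.00424, edgeR). mt-Nd1 (-0.42 ± 0.12), mt-Cytb (-0.31 ± 0.11) and mt-Nd6 (-0.78 ± 0.25) were called, with adjusted p = 0.0165, 0.0407 and 0.0315 (edgeR), and each lost its call without WT naive replicate 1 or KO naive replicate 1. mt-Nd1 and mt-Cytb also lost it without KO naive replicate 2, and mt-Cytb without WT naive replicate 2. mt-Co1 had 6014 and 6036 CPM in KO naive, against 7632 and 6911 CPM in WT naive cells, and did not pass (-0.27 ± 0.11, adjusted p = 0.0881, edgeR). mt-Nd4 did not pass either (-0.20, adjusted p = 0.137).

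Of the nuclear genes, Sdhaf1 kept its call without any 1 library, with 34.3 and 33.3 CPM in KO naive, against 45.8 and 53.3 CPM in WT naive cells (-0.55 ± 0.11, adjusted p = 0.00209, edgeR). Ndufa7, an accessory subunit of complex I, had 35.3 and 41.8 CPM, against 49.7 and 51.6 CPM in WT naive cells (-0.39 ± 0.09, adjusted p = 0.00337, edgeR), lost without KO naive replicate 1 (0.0866). Uqcrfs1 (-0.29 ± 0.07, adjusted p = 0.00562, edgeR) was lost without WT naive replicate 2 (0.054) or KO naive replicate 1 (0.0647), and Ndufv3 (-0.40 ± 0.10, adjusted p = 0.00845, edgeR) without WT naive replicate 1 (0.0623) or KO naive replicate 1 (0.103). The 1 gene that was higher, Cox6b2 (0.75 ± 0.22, adjusted p = 0.0166, edgeR), was lost without WT naive replicate 2 (0.17) or KO naive replicate 1 (0.0997). The catalytic subunits did not pass, with log2 fold changes of -0.04 for Ndufs1, 0.06 for Ndufv1, 0.02 for Sdha, 0.07 for Sdhb, 0.02 for Atp5a1 and 0.06 for Atp5b.

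Other markers moved with the genotype in naive cells. The 9 erythroid markers summed to 1552 and 419 CPM in KO naive, against 397 and 261 CPM in WT naive cells, with 7 higher and none lower. The 13 myeloid and dendritic cell markers summed to 1471 and 739 CPM, against 596 and 454 CPM in WT naive cells, with 9 of 12 tested higher. The 10 B cell markers summed to 89.8 and 55.5 CPM, against 27.4 and 21.4 CPM in WT naive cells, with 3 of 9 tested higher. The 12 T cell markers summed to 5097 and 5709 CPM, against 6609 and 6744 CPM in WT naive cells, with 1 higher and 5 lower. Of 5 NK cell markers 2 were higher, and of 11 tested mast cell and basophil markers 3. The 10 genes induced by handling stress summed to 6408 and 6064 CPM, against 4166 and 4735 CPM in WT naive cells, with 6 higher. Multimapping alignments, which include reads of the copied mt- genes, were 27.7% and 27.4% in KO naive and 31.4% and 30.5% in WT naive cells. The part of these differences in the mt- levels was not tested.

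In KO against WT Th1 cultures, 4 mt- genes were lower and nuclear genes differed both ways. The mt- sum was 10798 and 9000 CPM in KO Th1, against 12171 and 12236 CPM in WT Th1, and the nuclear sum 8713 and 8635 CPM, against 8079 and 8224 CPM in WT Th1. The ratio of the sums was 1.24 and 1.04 in KO Th1, against 1.51 and 1.49 in WT Th1, a log2 difference of -0.40 with no overlap. The log2 difference of the mt- sum, -0.31, is -0.17 as a share of all assigned counts, and that of the nuclear sum, 0.09, is 0.23. Of the nuclear genes 23 were higher and 9 lower (median 0.09), and of the mt- genes 1 was higher and 4 lower (median -0.37), with 50.6% of all genes called, 24.8% higher and 25.8% lower. Leaving out WT Th1 replicate 1, WT Th1 replicate 2, KO Th1 replicate 1 or KO Th1 replicate 2 left 16, 17, 19 or 18 nuclear genes called. The mt- count was 3 without either WT Th1 library and 2 without KO Th1 replicate 2. Fitted on the 4 libraries alone, 49 nuclear genes were called.

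mt-Nd5 was lower whichever library was left out, with 1065 and 883 CPM in KO Th1, against 1353 and 1382 CPM in WT Th1 (-0.49 ± 0.10, adjusted p = 0.000747, edgeR). mt-Co1 had 4813 and 3894 CPM, against 5932 and 5768 CPM in WT Th1 (-0.43 ± 0.12, adjusted p = 0.00561, edgeR), and mt-Nd4 had 638 and 534 CPM, against 742 and 778 CPM in WT Th1 (-0.37 ± 0.10, adjusted p = 0.00387, edgeR). Both calls were lost without KO Th1 replicate 2, at 0.0892 and 0.0711. mt-Cytb (-0.30 ± 0.11, adjusted p = 0.0282, edgeR) was lost without WT Th1 replicate 1 (0.064), WT Th1 replicate 2 (0.13) or KO Th1 replicate 2 (0.244). mt-Nd1 was the 1 mt- gene with more counts in the KO, at 1533 and 1309 CPM in KO Th1, against 1123 and 1143 CPM in WT Th1 (0.33 ± 0.12, adjusted p = 0.0336, edgeR). That call was lost without WT Th1 replicate 1 (0.151), WT Th1 replicate 2 (0.121) or KO Th1 replicate 1 (0.306). mt-Nd2 (-0.17) and mt-Nd6 (-0.54 ± 0.24, adjusted p = 0.0791, edgeR) did not pass.

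Among the nuclear genes that rose in KO Th1, Uqcrq, a small subunit of complex III (chromosome 11, 53427922 to 53430831), had 89.4 and 95.6 CPM, against 53.2 and 53.9 CPM in WT Th1 (0.79 ± 0.13, adjusted p = 0.000124, edgeR). Atp5b had 1221 and 1281 CPM, against 874 and 931 CPM in WT Th1 (0.47 ± 0.11, adjusted p = 0.00197, edgeR). Ndufaf4 had 19.97 and 19.6 CPM, against 10.1 and 11.3 CPM in WT Th1 (0.89 ± 0.17, adjusted p = 0.000439, edgeR), and the complex I accessory subunit Ndufa12 had 22.5 and 19.5 CPM, against 12.3 and 12.5 CPM in WT Th1 (0.76 ± 0.18, adjusted p = 0.00196, edgeR). In these 4 genes every KO library lay above every WT one. Cox5a (0.31 ± 0.10, adjusted p = 0.0137, edgeR) was lost without WT Th1 replicate 2 (0.107) or KO Th1 replicate 1 (0.136). Cox6a2 had 6 and 7 counts in KO Th1, against 2 and 0 in WT Th1, a ratio of 6.12 (95% interval 1.39 to 55.9, counting error only).

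Lower in KO Th1 was Ndufv3, with 63.0 and 65.8 CPM, against 121 and 128 CPM in WT Th1 (-0.95 ± 0.10, adjusted p = 5.73e-07, edgeR), so that its level in KO Th1 lay near that of WT naive cells, at 52.8 and 49.3 CPM. Uqcrh, the hinge protein of complex III, had 162 and 146 CPM, against 235 and 219 CPM in WT Th1 (-0.56 ± 0.10, adjusted p = 0.00029, edgeR). Atp5sl (-0.70 ± 0.13), the complex I accessory subunit Ndufa6 (-0.62 ± 0.15) and Sdhaf2 (-0.48 ± 0.10), which helps attach the flavin to Sdha, were lower as well. By complex, the KO Th1 counts of higher and lower genes were 11 and 5 in complex I, 1 and 1 in complex II, 3 and 1 in complex III, 3 and 1 in complex IV, and 5 and 1 in complex V. Beside these counts, 24.8% of all genes were higher and 25.8% lower.

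Marker genes of other cells differed in KO Th1 cultures as well, where the cells had been sorted as viable CD4+ cells. The 12 markers of mast cells and basophils summed to 2349 and 1017 CPM in KO Th1, against 188 and 141 CPM in WT Th1, and all 11 tested were higher. The 12 T cell markers summed to 5136 and 5058 CPM, against 7854 and 7695 CPM in WT Th1, with 1 higher and 10 lower. The 13 myeloid and dendritic cell markers summed to 204 and 159.6 CPM, against 82.8 and 85.7 CPM in WT Th1, with 5 of 12 tested higher, and 3 of 9 erythroid markers were higher. Their part in the results on KO Th1 was not tested. KO Th1 replicate 1 had 2349 CPM of the mast cell and basophil markers and 4813 CPM of mt-Co1. Replicate 2 had 1017 and 3894 CPM. A relation between these values was not tested and cannot be read from 2 libraries.

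On the TMM scale, the KO difference of the mt- sum in Th2 cultures came from mt-Co1. KO Th2 libraries had the lowest TMM factors, 0.878 and 0.878, against 0.981 and 0.997 in WT Th2. Scaled by library size alone, the other 6 mt- genes would be lower in KO Th2 as well. mt-Co1 had 6656 and 6090.3 CPM in KO Th2, against 9543 and 8387 CPM in WT Th2 (-0.49 ± 0.12, adjusted p = 0.0017, edgeR), a call kept without any 1 library. The mt- sum was 12565 and 11539 CPM in KO Th2, against 15475 and 13754 CPM in WT Th2, while the other 6 mt- genes summed to a mean of 5679 CPM in KO Th2 and 5649.8 CPM in WT Th2, with overlapping libraries. The nuclear sum overlapped as well, at 8116 and 8467 CPM in KO Th2, against 8176 and 8471 CPM in WT Th2. The log2 difference of the ratio of the sums, -0.27, became -0.0022 without mt-Co1 and mt-Nd4. The ratio of mt-Co1 to mt-Cytb was 3.74 and 3.75 in KO Th2, against 5.06 and 4.90 in WT Th2, and 1.73 and 1.78 in KO naive, against 1.73 and 1.68 in WT naive cells. In WT Th2 cultures with compound it was 4.83 and 3.69 for SGC0649 and 4.71 and 4.04 for SGC0946. A WT Th2 library with the control compound thus reached the KO level of this ratio. Of the mt- genes 1 was higher and 1 lower, with 53.4% of all genes called, 26.5% higher and 26.9% lower. The higher one was mt-Nd6, with 99.1 and 71.6 CPM in KO Th2, against 63.1 and 48.2 CPM in WT Th2 (0.62 ± 0.24, adjusted p = 0.0436, edgeR), lost without WT Th2 replicate 2 (0.25) or KO Th2 replicate 1 (0.332). Each of these removals leaves 1 mt- gene called.

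Nuclear genes in KO Th2 were divided, with 22 higher and 14 lower (median log2 fold change 0.03). Cox5a had 158 and 187 CPM in KO Th2, against 107 and 110.0 CPM in WT Th2 (0.67 ± 0.10, adjusted p = 2.6e-05, edgeR). Ndufa1, an accessory subunit of the membrane arm of complex I encoded on the X chromosome (37187588 to 37191163), had 46.1 and 51.1 CPM, against 23.5 and 26.9 CPM in WT Th2 (0.95 ± 0.11, adjusted p = 2.75e-06, edgeR). Sdhb had 112 and 134 CPM, against 76.7 and 84.6 CPM in WT Th2 (0.60 ± 0.11, adjusted p = 0.000262, edgeR), which brings it to the level in WT Th1, 129.8 and 126 CPM. No called complex IV gene was lower, with 5 of 15 higher, and 4 of 8 complex II genes were higher and 1 lower. Over all genes, 26.5% were higher and 26.9% lower.

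Complex I, which holds 44 of the 91 nuclear genes, had 9 higher and 10 lower in KO Th2. Of all genes, 53.4% were called, 26.5% higher and 26.9% lower. Ndufaf6 (chromosome 4, 11051045 to 11076205) fell to 3.15 and 2.37 CPM in KO Th2, against 8.12 and 8.06 CPM in WT Th2 (-1.53 ± 0.21, adjusted p = 9.67e-06, edgeR). Ndufs4, an accessory subunit whose loss in people causes complex I deficiency (chromosome 13, 114287795 to 114388094), fell to 47.3 and 51.7 CPM, against 76.7 and 80.2 CPM in WT Th2 (-0.67 ± 0.09, adjusted p = 1.48e-05, edgeR). Ndufc2, a membrane arm subunit, had 35.2 and 30.8 CPM, against 48.9 and 51.5 CPM in WT Th2 (-0.60 ± 0.12, adjusted p = 0.000339, edgeR). In all 3 the KO and WT libraries were apart. Outside complex I, Sdhaf1 (-0.69 ± 0.14) and Uqcrfs1 (-0.28 ± 0.07) were lower, as was Atp5b, with 842 and 839 CPM in KO Th2, against 1032 and 1184 CPM in WT Th2 (-0.40 ± 0.11, adjusted p = 0.00569, edgeR), lost without WT Th2 replicate 2 (0.0997).

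KO Th2 cultures held more counts of CD8 markers, which summed over 2 genes to 129.6 and 267 CPM, against 13.05 and 16.2 CPM in WT Th2, with both genes called. The 13 myeloid and dendritic cell markers summed to 438 and 503 CPM, against 133 and 98.3 CPM in WT Th2, with 5 of 12 tested higher and 1 lower. Of 12 T cell markers, 4 were higher and 6 lower. Their part was not tested. As shares of all assigned counts the KO Th2 differences are -0.44 for the mt- sum and -0.17 for the nuclear sum, against -0.28 and -0.01 on the TMM scale.

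**Figure D5:**
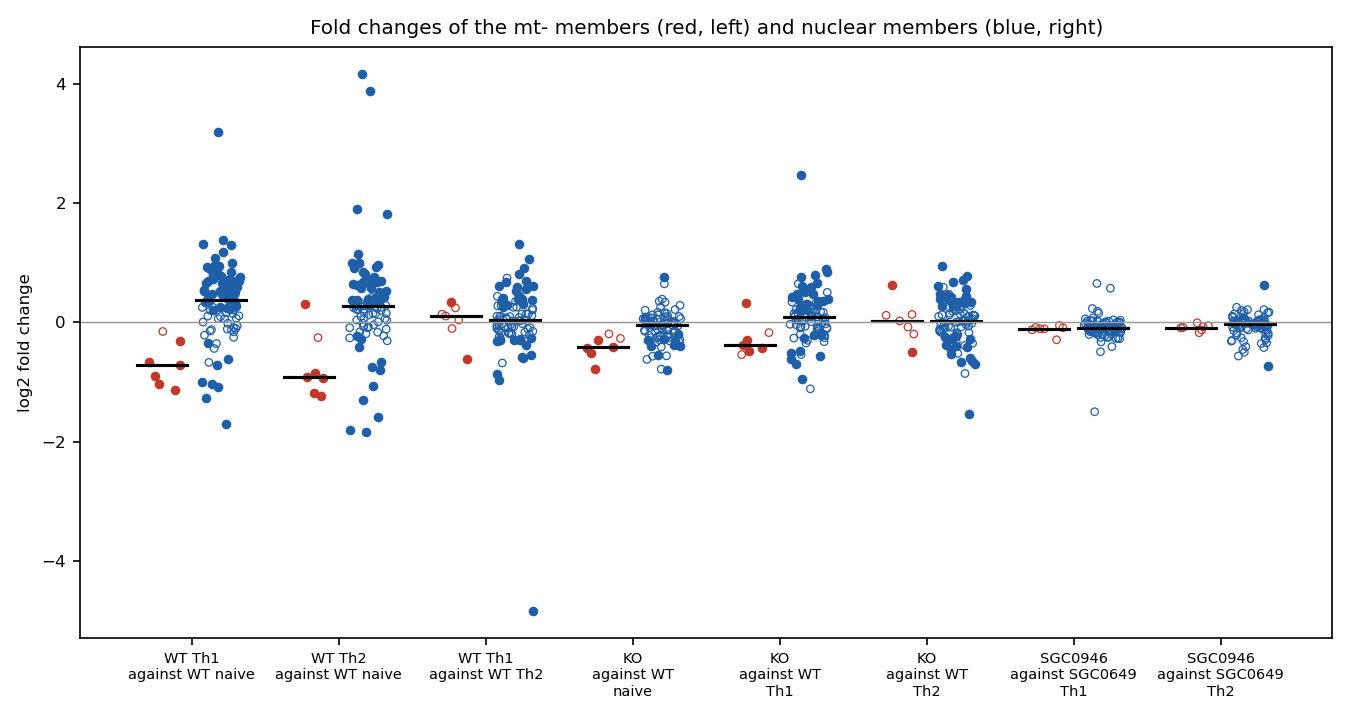
Log2 fold changes of the mt- genes (red, left of each pair) and nuclear genes (blue, right) in 8 comparisons; filled points passed an adjusted p under 0.05 and bars are medians. The mt- median is below 0 in both cultures against WT naive cells (-0.72 and -0.91) and in KO naive and KO Th1 (-0.42 and -0.37), and near 0 in KO Th2 (0.02); points beyond 2 and below -2 are Cox6a2 and Cox7a1, whose fitted values rest on few counts.

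The effect of the KO differed between the states for some genes, by tests of the difference of log2 fold changes over all genes. Between Th1 and naive cells, 9 nuclear genes had a higher and 2 a lower KO effect in Th1, and 1 mt- gene a higher one, with 27.5% of all genes called (10.7% higher, 16.9% lower), and the nuclear count was 7 without KO naive replicate 2. Between Th2 and naive cells, 16 nuclear genes had a higher and 5 a lower effect in Th2, and 3 mt- genes a higher one, with 35.7% called (17% higher, 18.7% lower). The count of nuclear genes fell to 13 with WT naive replicate 1 or WT Th2 replicate 2 left out and to 10 with KO naive replicate 1 left out, and that of mt- genes was 1 without WT Th2 replicate 2. Between Th1 and Th2, 16 nuclear genes had a higher and 15 a lower effect in Th1, and 3 mt- genes a lower one, with 46.2% called (22% higher, 24.3% lower), and the nuclear count was 19 without WT Th1 replicate 1 and 18 without WT Th2 replicate 2. Genes whose KO effect differed between the cultures include, as Th1 minus Th2, Atp5b (0.87), Ndufaf6 (2.15), Ndufc2 (1.07) and Atp5sl (-1.09).

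Between the compounds, given at the same dose and time, few of these genes were called, and 1 pair was compared in each culture. In Th1, SGC0946 against SGC0649 called 0 of 91 nuclear and 0 of 7 mt- genes, with 0.467% of all genes called, 0.405% higher and 0.0612% lower. At an unadjusted p under 0.05 edgeR gave 7 nuclear and 0 mt- genes, limma voom 6 nuclear and DESeq2 3 nuclear. The mt- sum was 11764 and 12628 CPM with SGC0946, against 12396 and 13798 CPM with SGC0649. The nuclear sum was 7674 and 7737 CPM with SGC0946, against 7897 and 8258 CPM with SGC0649, without overlap. The ratio of the sums overlapped. mt-Co1 had 6122 and 6202 CPM with SGC0946, against 6477 and 6827 CPM with SGC0649, a log2 difference of -0.11 (95% interval -0.37 to 0.15), and mt-Nd5 had a difference of -0.05 (-0.28 to 0.17). For Cox5a it was -0.11 (-0.33 to 0.11) and for Atp5b -0.09 (-0.34 to 0.15). The fitted differences were below 0 in 74 of 91 nuclear and 7 of 7 mt- genes, with medians of -0.10 and -0.11. These signs are not set against those of all genes tested, and no member passed. A shared fall under the inhibitor cannot be read from them.

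In Th2, 1 nuclear gene was higher and 1 lower with SGC0946 against SGC0649 and no mt- gene was called, with 7.96% of all genes called, 5.45% higher and 2.51% lower. At an unadjusted p under 0.05 edgeR gave 8 nuclear genes. The higher one was Cox6b2, with 13.5 and 16.2 CPM, against 10.5 and 8.87 CPM with SGC0649 (0.62 ± 0.17, adjusted p = 0.038, edgeR), and the lower one Ndufaf4, with 8.32 and 9.44 CPM, against 11.4 and 18.1 CPM with SGC0649 (-0.73 ± 0.18, adjusted p = 0.0215, edgeR). Neither was called without SGC0649 replicate 2, SGC0946 replicate 1 or SGC0946 replicate 2, and 5 nuclear genes were called without SGC0649 replicate 1. mt-Co1 had 7593 and 6842 CPM with SGC0946, against 8435 and 6912 CPM with SGC0649, a difference of -0.09 (-0.34 to 0.17), and Cox5a one of -0.18 (-0.40 to 0.04). SGC0649 against no compound called no gene of either kind in Th1 (0.0153% of all genes called) or Th2 (0.673%, with 0.245% higher and 0.428% lower), with 2 and 20 nuclear genes at an unadjusted p under 0.05 (edgeR), and in Th2 25 nuclear genes were called without SGC0649 replicate 1.

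The KO and the inhibitor differed for several nuclear genes when the log2 effects were subtracted. In Th1, 17 nuclear genes had a higher and 6 a lower effect in the KO, and 1 mt- gene a lower one, with 30.7% of all genes called (12.8% higher, 17.9% lower). In Th2 these were 12, 8 and 0, with 32.0% called (15% higher, 17% lower). Ndufa12 (1.17 ± 0.26), Uqcrq (0.95 ± 0.19) and Ndufv3 (-0.92 ± 0.13) stood apart in Th1, and Ndufa1 (1.03 ± 0.16), Cox5a (0.85 ± 0.14) and Ndufs4 (-0.60 ± 0.13) in Th2. For mt-Co1 the difference between KO and inhibitor did not pass in Th1 (-0.32, adjusted p = 0.149) or Th2 (-0.40, adjusted p = 0.068, edgeR). Without any 1 of the 8 libraries in Th1 other than SGC0946 replicate 2, the nuclear count was 7 to 15. The mt- count was 0 without WT Th1 replicate 1, WT Th1 replicate 2, KO Th1 replicate 2 or SGC0946 replicate 2, and 3 without KO Th1 replicate 1. In Th2 the nuclear count was 12 without WT Th2 replicate 1, 11 without KO Th2 replicate 2 and 13 without SGC0946 replicate 1.

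Genes that act on mitochondrial DNA and RNA were read from lists set beside the members. Over all genes tested, 34.3% were higher and 33.0% lower in WT Th1 and 36.9% and 35.0% in WT Th2 against WT naive cells, and in the KO 16% and 12.4% in naive cells, 24.8% and 25.8% in Th1, and 26.5% and 26.9% in Th2. Of 29 genes of mitochondrial transcription and RNA processing, 7 were higher and 13 lower in WT Th1, and 8 and 9 in WT Th2, against WT naive cells. In the KO, 1 was higher and 6 lower in naive cells, 9 and 1 in Th1, and 1 and 12 in Th2. Tfb2m, the factor that opens the mitochondrial promoter for the RNA polymerase, was lower in Th1 (-2.17 ± 0.19, adjusted p = 3.89e-08) and Th2 (-1.46 ± 0.19, adjusted p = 2.05e-06, edgeR) against WT naive cells, and in KO against WT naive cells (-1.01 ± 0.18, adjusted p = 0.000621, edgeR). Fastkd3, a protein of mitochondrial RNA metabolism, was higher in WT Th2 against WT naive cells (2.12 ± 0.12) and lower in KO against WT Th2 (-1.71 ± 0.12, adjusted p = 3.18e-09, edgeR).

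Of 14 genes that maintain mitochondrial DNA, 2 were higher and 9 lower in WT Th1, and 4 and 7 in WT Th2, against WT naive cells, where 67.3% and 71.9% of all genes were called. Polg2, the accessory subunit of the mitochondrial DNA polymerase, had log2 fold changes of -1.79 ± 0.15 and -1.70 ± 0.15, and Tk2, the thymidine kinase of mitochondria, of -1.36 ± 0.09 and -1.29 ± 0.09. Tk2 was lower in KO against WT naive cells too (-0.48 ± 0.09). In the KO this list had 1 higher and 2 lower in naive cells, 5 and 5 in Th1, and 2 and 3 in Th2.

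Of 15 regulators of respiratory genes, 6 were higher and 8 lower in WT Th1 (67.3% of all genes called), and 6 and 4 in WT Th2 (71.9%), against WT naive cells. Hif1a, the oxygen-responsive factor, had a log2 fold change of 2.99 ± 0.11 in Th1 and 2.57 ± 0.11 in Th2, while Ppargc1b, a coactivator of mitochondrial genes, had -2.64 ± 0.22 and -2.43 ± 0.22. In the KO, 1 regulator was higher and 4 lower in naive cells (28.4% of all genes called), 4 and 4 in Th1 (50.6%), and 3 and 6 in Th2 (53.4%). Of 37 assembly factors outside the chosen name groups, 15 were higher and 8 lower in WT Th1, and 16 and 7 in WT Th2. In the KO they were 1 and 2 in naive cells, 6 and 8 in Th1, and 4 and 8 in Th2. Sco1, which delivers copper to complex IV, had 1.59 ± 0.15 in WT Th1 and 1.82 ± 0.15 in WT Th2 against WT naive cells.

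Of 21 genes of cytochrome c, cytochrome c1 and coenzyme Q, 7 were higher and 5 lower in WT Th1 (67.3% of all genes called). For WT Th2 the counts were 7 and 4 (71.9%). In the KO they were 3 and 2 in naive cells (28.4%), 9 and 3 in Th1 (50.6%), and 1 and 4 in Th2 (53.4%). Of 18 citrate cycle genes, which feed the chain, 5 were higher and 7 lower in WT Th1, and 6 and 6 in WT Th2, and in the KO 1 and 1 in naive cells, 6 and 3 in Th1, and 1 and 8 in Th2, beside the same shares of all genes. Pcx, which makes oxaloacetate from pyruvate, was higher in WT Th1 (2.67 ± 0.18) and WT Th2 (5.13 ± 0.17) against WT naive cells and lower in KO against WT Th1 (-1.93 ± 0.16) and KO against WT Th2 (-2.56 ± 0.14).

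Promoters of the nuclear genes were read from RefSeq (GRCm38.p6), from 250 bases before to 50 after the start, with 78 of 91 genes matched. The 3 motifs of factors known at respiratory genes were searched on both strands. The palindrome bound by NRF1, whose letters are the capitals in the Ndufaf4 promoter below, occurred in 7 promoters (8.97%), against 0.966% of all promoters in the table. AAGATGGC, bound by YY1, occurred in 10 (12.8%), against 2.74%, and CCGGAAGT, bound by ETS factors, in 5 (6.41%), against 3.89%. No promoter held more than 1 of these motifs. Members entered with 1 promoter each, the one nearest the annotated start, while the comparison took all 32817 promoters. The 2 shares are thus counted unlike and were not tested. A match is a description of letters and not a site. The 2 promoters shown belong to genes with large changes, Ndufaf4 (lower in culture, higher in KO Th1), at chr4:24897833-24898132 on the plus strand with an NRF1 motif in capitals, and Ndufs4 (lower in KO Th2), at chr13:114388045-114388344 on the minus strand with a YY1 motif in capitals.
Ndufaf4: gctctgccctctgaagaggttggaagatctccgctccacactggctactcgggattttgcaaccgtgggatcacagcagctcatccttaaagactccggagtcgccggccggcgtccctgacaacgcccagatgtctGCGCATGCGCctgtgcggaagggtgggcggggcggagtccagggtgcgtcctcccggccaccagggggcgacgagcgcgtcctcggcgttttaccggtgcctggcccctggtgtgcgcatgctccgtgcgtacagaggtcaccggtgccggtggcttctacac
Ndufs4: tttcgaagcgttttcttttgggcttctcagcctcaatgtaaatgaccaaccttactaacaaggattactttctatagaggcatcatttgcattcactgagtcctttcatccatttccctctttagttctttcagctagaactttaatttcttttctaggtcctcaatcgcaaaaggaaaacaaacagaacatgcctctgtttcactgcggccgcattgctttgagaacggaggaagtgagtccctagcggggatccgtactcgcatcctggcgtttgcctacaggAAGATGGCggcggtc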

How the data were processed

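The authors counted reads per gene in featureCounts (version 1.5.3, strand setting 2, no multimapping reads) against GRCm38 genes of Ensembl release 84, per the file headers; these deposited counts are the input. Gene lengths in bases, a unit of another kind, stand beside them per the file headers and entered only levels per kilobase. Both edgeR and limma are named in the submitters' processing notes, and for the aligner a name is not given in the sources used here. Protein-coding counts ran from 9704500 to 13025588 per library, and paired libraries of 1 group differed by more than counting error (chi-square over degrees of freedom 2.25 to 19.4).

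Of 22048 protein-coding genes, 13072 passed filterByExpr (minimum counts 10). All 20 libraries were fitted together, 1 mean per group, with TMM scaling in edgeR 4.0.16 (quasi-likelihood test, R 4.3.3), with p-values adjusted by Benjamini-Hochberg over all genes tested and called under 0.05. Intervals are at 95% and use 10 residual degrees of freedom for every gene. limma 3.58.1 and DESeq2 1.42.0 were alternatives, and the fit was tested on simulated data. Shared sequence was searched in GENCODE M21 transcripts in windows of 50 bases.

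Named were all mt- genes, 10 set nuclear subunits, up to 6 highest and 6 lowest called nuclear genes per comparison with no overlap between libraries, up to 4 genes per difference of effects and up to 3 per other list, and Dot1l. The members and lists were chosen with earlier results of these data known.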

Additional observations from a re-analysis of the deposited data

Results flagged for a closer look

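The following genes had a KO effect that differed between 2 cell states, by a test of the difference of the log2 fold changes over all genes (edgeR, Benjamini-Hochberg). Groups of 2 libraries are too small for a check of single deviating libraries.

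Between Th1 and naive cells (Th1 minus naive), the KO effect was higher for mt-Nd1 by 0.75 (adjusted p = 0.00414), Ndufaf4 by 1.15 (0.00192), Uqcrq by 0.92 (0.00211) and the complex I subunit Ndufa10 by 0.49 (0.0027), and for Sdhaf2 the difference was -0.73 (0.0013). Between Th2 and naive cells (Th2 minus naive), it was 0.55 for mt-Nd1 (0.0191), 0.46 for mt-Nd5 (0.0181), 1.40 for mt-Nd6 (0.00601), 0.53 for Sdhb (0.0158), 0.58 for Cox5a (0.0048), 1.19 for Ndufa1 (3.56e-05) and 0.70 for Ndufa10 (7.5e-05), and -0.46 for Atp5b (0.0301), -1.66 for Ndufaf6 (0.000301) and -0.54 for Ndufs4 (0.00462).

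Between the cultures (Th1 minus Th2), the difference was 0.87 for Atp5b (0.000255), 2.15 for Ndufaf6 (1.48e-05), 1.07 for Ndufc2 (5.31e-05), 0.37 for Atp5a1 (0.0281) and 0.34 for Uqcrc1 (0.0461). It was -0.49 for mt-Nd4 (0.00709), -0.51 for mt-Nd5 (0.00761), -1.16 for mt-Nd6 (0.0132), -0.57 for Sdhb (0.00707), -0.36 for Cox5a (0.0457) and -1.09 for Atp5sl (0.000204).

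The KO libraries held 100 reads of Gm28438 in all, in a table the tests on protein-coding genes did not use, against 0 in the WT libraries.

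Some of these calls were lost when 1 library was left out. From Th2 minus naive, mt-Nd1 lost its call with WT naive replicate 1 left out (adjusted p = 0.0905), or without KO naive replicate 2 (0.0598), WT Th2 replicate 2 (0.0681) or KO Th2 replicate 1 (0.0693), mt-Nd5 without KO naive replicate 1 (0.0564) or WT Th2 replicate 2 (0.0808), Sdhb without KO naive replicate 1 (0.0549), WT Th2 replicate 1 (0.0552) or KO Th2 replicate 2 (0.0899), and Atp5b without any library but WT Th2 replicate 1 (0.0551 to 0.16). From Th1 minus Th2, mt-Nd6 was lost without KO Th1 replicate 2 (0.0567), WT Th2 replicate 2 (0.0567) or KO Th2 replicate 1 (0.0615). Cox5a was lost without WT Th1 replicate 1 (0.105), KO Th1 replicate 2 (0.122), WT Th2 replicate 1 (0.0827), WT Th2 replicate 2 (0.0641) or KO Th2 replicate 2 (0.221). Atp5a1 was lost without any library but WT Th2 replicate 1 and KO Th2 replicate 2 (0.0563 to 0.144), and Uqcrc1 without any library but KO Th2 replicate 2 (0.0618 to 0.212).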

How the results depend on the processing

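No result changed direction with a call under any alternative, and no scaling moved the median of all genes by over 0.1 on the log2 scale. For single genes, 2621 of the values under other settings stayed on their side of the threshold, 35 lost and 39 gained a call. The sign was the same wherever either fit called the gene, and values called in neither could change sign. Fitting the libraries of a contrast alone gave 49 nuclear genes called for KO against WT Th1 (32 in the fit of all libraries), 0 for SGC0946 in Th2, 21 nuclear and 2 mt- genes for KO effect in Th1 minus naive, 36 and 3 for KO minus SGC0946 in Th1, and 4 nuclear genes for KO minus SGC0946 in Th2. Without the filter on low counts 1 mt- gene was called in KO Th2 and 1 nuclear gene for SGC0946 in Th2, as with the larger table and DESeq2 for SGC0946 in Th2. DESeq2 gave 2 mt- genes for KO minus SGC0946 in Th1 and 1 in Th2. As shares of all assigned counts, the log2 differences were -0.23 (mt- sum) and 0.0429 (nuclear sum) in KO naive, -0.17 and 0.23 in KO Th1, and -0.44 and -0.17 in KO Th2. Without mt-Co1 and mt-Nd4, the log2 difference of the ratio of sums was -0.0022 in KO Th2, -1.25 in WT Th1 and -1.45 in WT Th2 against WT naive cells, and 0.21 in WT Th1 against WT Th2. The cause of these changes was not tested.

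Same-numbered libraries are not stated to share an animal or day, and their deviations correlated at -0.057 to 0.70. The column headers number both SGC0946 libraries of each culture 1, against 1 and 2 in the titles, whose numbers were used here after matching by the library number. With the replicate number as a replicate block, 1 nuclear gene was called for SGC0649 against no compound in Th2 and 1 mt- gene for KO minus SGC0946 in Th2, against 0 for both without it, and other counts stayed within 1.5 times.

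Leaving out 1 library at a time, nuclear and mt- counts were 1 to 10 and 2 to 4 for KO naive, 16 to 19 and 2 to 4 for KO Th1, 27 to 30 and 1 to 2 for KO Th2, 0 to 5 and 0 for SGC0946 in Th2, 0 and 0 for SGC0946 and for SGC0649 in Th1, 0 to 25 and 0 for SGC0649 in Th2, 54 to 56 and 5 to 6 for WT Th1 against naive, 45 to 51 and 5 to 6 for WT Th2 against naive, and 27 to 28 and 1 to 3 for WT Th1 against WT Th2. For differences of effects they were 7 to 11 and 1 (Th1 minus naive), 10 to 23 and 1 to 4 (Th2 minus naive), 18 to 29 and 2 to 3 (Th1 minus Th2), 7 to 16 and 0 to 3 (KO minus SGC0946, Th1) and 11 to 25 and 0 to 1 (KO minus SGC0946, Th2). A group left with 1 library is assumed to vary like the others. With 2 libraries per group, effects within the interval of the SGC0946 values were not detectable.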

Other observations

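Mitochondrial ribosomal RNA, which stands outside the protein-coding table, was read from a fit of the larger table of all genes. mt-Rnr1, the RNA of the small ribosomal subunit, was higher in WT Th2 against WT naive cells (log2 fold change 1.46 ± 0.26, adjusted p = 0.000213, edgeR), the opposite sign to the 5 mt- messenger RNAs that fell there. It was not called in WT Th1 against WT naive cells (0.36 ± 0.25, adjusted p = 0.223). For mt-Rnr2, the RNA of the large subunit, the value in WT Th2 against WT naive cells was 0.31 ± 0.17 (adjusted p = 0.109). Neither was called in KO against WT, with values of 0.09 and -0.19 in naive cells, -0.01 and -0.14 in Th1, and -0.13 and 0.27 in Th2. How ribosomal RNA was removed is not stated in the labels. Both genes together made up 0.139% and 0.126% of assigned counts in WT Th2, against 0.104% and 0.0656% in WT naive cells.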
